A study of Mus musculus with 9 samples.

Results

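The genes described here assemble triglyceride, the storage fat of adipocytes, or supply the glycerol backbone on which it is built. They are 10 genes, chosen by name for what their proteins do and with earlier results of these data known. Out of 41761 in the expression table they are Gpd1, Pck1, Aqp7, Gpam, Gpat4, Agpat2, Agpat3, Lpin1, Dgat1 and Dgat2. They were measured by RNA sequencing in primary stromal cells from the inguinal white fat of wild-type C57BL/6J mice, differentiated in culture towards white adipocytes with sodium alginate at 0, 50 or 100 µM, with 3 libraries per dose and 9 in all. Alginate is a polysaccharide from brown algae, and the study's title ties it to subcutaneous fat differentiation and the PPAR pathway. All 3 groups, 0 µM included, were induced 4 days after confluence in medium with 10% serum. The induction mix was rosiglitazone at 1 µM, insulin at 1 µg/ml, IBMX at 0.5 mM and dexamethasone at 1 µM, and from day 2 the cells received insulin and rosiglitazone alone. Alginate was present throughout. Rosiglitazone is an agonist of PPAR gamma. It is listed in the treatment protocol and is absent from the series' design text. The titles give day 6 and the protocol gives RNA collection on day 7. The 100 µM libraries carry 50 µM in their titles, and their dose was taken from the treatment label and the library name. Whether the replicate libraries stem from different cultures or mice is not stated, and the p-values then reflect only how these libraries vary, which may be technical.

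Triglyceride is built by the glycerol-3-phosphate pathway. Glycerol-3-phosphate is acylated by a glycerol-3-phosphate acyltransferase (Gpam, Gpat4) and again by a lysophosphatidate acyltransferase (Agpat2, Agpat3). A phosphatidate phosphatase (Lpin1) then removes the phosphate, and a diacylglycerol acyltransferase (Dgat1, Dgat2) adds the last fatty acid. White adipocytes phosphorylate free glycerol poorly. Their glycerol-3-phosphate comes mainly from glucose and, by glyceroneogenesis, from pyruvate. Pck1 is the cytosolic phosphoenolpyruvate carboxykinase of glyceroneogenesis. Gpd1, the cytosolic glycerol-3-phosphate dehydrogenase, makes glycerol-3-phosphate from dihydroxyacetone phosphate. Aqp7 is the aquaglyceroporin through which adipocytes pass glycerol across the plasma membrane.

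RefSeq's promoter table (build GRCm38.p6) held entries for 6 of the 10 genes, namely Gpam, Agpat2, Agpat3, Lpin1, Pck1 and Aqp7. The 250 bases before the annotated start are shown for 4 of them: for Agpat2 and Lpin1, whose levels differed most between doses along the assembly pathway, for Aqp7, which rose less, and for Pck1, which stood near the detection limit. Each run reads 5′ to 3′ on the strand of the gene and ends 1 base before the start, and capitals mark any of 6 short motifs searched on both strands. The Agpat2 window is chr2:26604418-26604667 on the minus strand, the Lpin1 window chr12:16610967-16611216 on the minus strand, the Aqp7 window chr4:41048137-41048386 on the minus strand and the Pck1 window chr2:173152823-173153072 on the plus strand.
Agpat2: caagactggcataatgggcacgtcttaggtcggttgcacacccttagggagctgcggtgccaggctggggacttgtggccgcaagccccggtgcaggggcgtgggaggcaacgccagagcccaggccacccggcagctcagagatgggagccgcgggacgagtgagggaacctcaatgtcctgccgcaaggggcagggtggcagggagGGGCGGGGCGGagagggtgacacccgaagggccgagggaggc
Lpin1: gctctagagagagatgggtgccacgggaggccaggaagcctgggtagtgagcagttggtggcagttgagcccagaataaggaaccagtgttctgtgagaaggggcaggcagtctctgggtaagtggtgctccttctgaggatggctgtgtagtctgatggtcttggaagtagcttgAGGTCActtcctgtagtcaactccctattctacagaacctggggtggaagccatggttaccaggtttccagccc
Aqp7: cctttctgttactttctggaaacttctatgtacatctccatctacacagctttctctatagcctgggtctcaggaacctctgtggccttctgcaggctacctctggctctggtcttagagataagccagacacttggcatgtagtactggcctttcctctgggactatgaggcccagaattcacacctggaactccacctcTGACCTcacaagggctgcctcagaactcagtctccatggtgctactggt
Pck1: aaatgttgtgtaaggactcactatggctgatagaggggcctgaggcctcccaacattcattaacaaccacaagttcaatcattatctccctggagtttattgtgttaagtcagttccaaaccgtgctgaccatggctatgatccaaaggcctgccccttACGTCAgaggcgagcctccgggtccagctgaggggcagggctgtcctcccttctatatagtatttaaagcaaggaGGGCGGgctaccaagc
The Agpat2 window holds 2 overlapping matches to the GC box GGGCGG, at -42 to -37 and at -37 to -32 from the start. The Lpin1 window holds AGGTCA, the core hexamer of nuclear receptor sites (PPAR and its partner RXR bind a direct repeat of it), at -74 to -69, and the Aqp7 window holds it on the opposite strand at -49 to -44. RefSeq lists 2 starts for Aqp7, and the window shown belongs to the more upstream one. The window of the other, chr4:41047963-41048212, is not shown and holds that same match, at -223 to -218 from its own start, and another at -101 to -96. The Pck1 window holds ACGTCA, part of the cAMP response element for which this promoter is a textbook example, at -91 to -86, and a GC box at -16 to -11. Gpam, not shown, has 2 windows. That at chr19:55099478-55099727 holds AGGTCA at -196 to -191, ACGTCA at -32 to -27 and a GC box at -16 to -11. The other Gpam window holds CCAAT alone, at -74 to -70, and the Agpat3 window, also not shown, holds no match. Matches this short are frequent: among 32851 mouse windows of the same length, GGGCGG was present in 32.7%, AGGTCA in 14%, ACGTCA in 6.47%, the E-box CACGTG in 6.02%, CCAAT in 33.8% and TATAAA in 12.4%. No binding was measured here, so the matches describe the letters only.

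The deposited values are FPKM, that is, sequenced fragments divided by gene length and by a library total. Each gene has 1 length, such as 4489 bases for Fabp4 and 12233 for Lpin2. Levels, ranks and shares set side by side between genes depend on that length, whose fit to the transcripts was not checked. Reads rebuilt from the deposited values ranged from 14019672 to 17094467 per library. Of these reads the 10 genes together took 0.470% ± 0.0227 (SD, n = 3) without alginate, 0.551% ± 0.0201 with 50 µM and 0.772% ± 0.00587 with 100 µM. The label calls the cells mature white adipocytes, and all 7 adipocyte markers were present at high levels, such as Adipoq (adiponectin) at 594 ± 26.7 FPKM at 0 µM. Markers of stromal progenitors, macrophages, endothelium and smooth muscle were present as well, as described further on. The test was limma on log2(FPKM + 1) for the 12635 genes that reached 1 FPKM in 3 or more libraries. The Benjamini-Hochberg adjustment ran over all of these genes, and a gene was called at an adjusted p below 0.05. Of the 10 genes, 9 were tested, and each of these 9 was above 17 FPKM in every library. Pck1 was below the filter.

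At 100 µM against 0 µM, all 9 tested genes were higher, where 18.3% of the genes tested were called higher (2314 higher and 1965 lower). Their log2 fold changes ran from 0.32 for Gpam to 0.93 for Agpat2, with a median of 0.69, beside a median of 0.01 over all genes tested. In each of the 9, the 3 libraries at 100 µM all lay above the 3 at 0 µM, as was so for 25.0% of the genes tested. The number of genes called in each direction over the whole table moved with the scaling, to 1620 higher and 2636 lower on a TPM scale and to 1731 higher and 2658 lower once the factor per library carried by the deposited values was removed. All 9 genes stayed called under both. In bulk libraries more adipocytes and more of a transcript per adipocyte cannot be told apart, and equally fewer cells of another type and less RNA per cell.

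**Figure D1:**
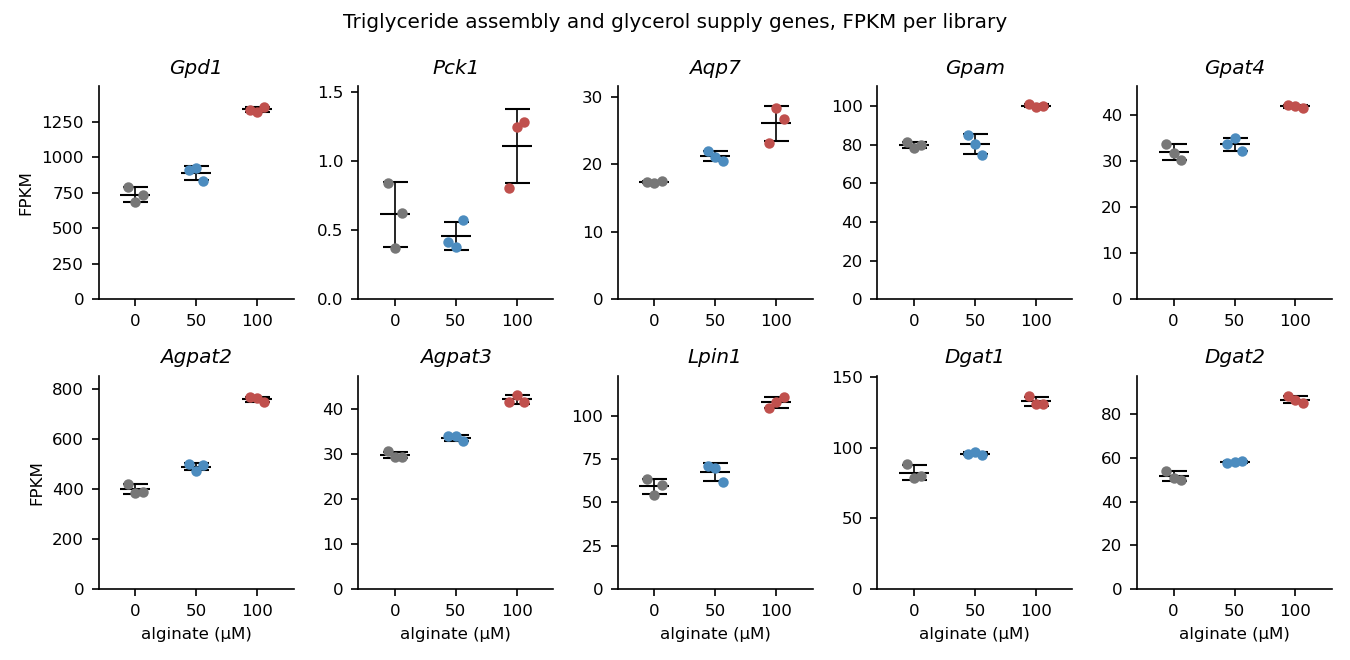
FPKM of the 10 genes (vertical axis, from 0) in each library at 0, 50 and 100 µM alginate (horizontal axis). Points are libraries, and the bars show the mean and the SD of 3. For every gene except Pck1 the 100 µM libraries lie above all of those at 0 µM.

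Gpd1, which makes glycerol-3-phosphate from the glycolytic intermediate dihydroxyacetone phosphate, was by far the most abundant of the 10 (chromosome 15, 105376374 to 105383977, on the C57BL/6NJ assembly of the table). It stood at 787, 682 and 736 FPKM in the libraries at 0 µM, at 911, 923 and 830 at 50 µM and at 1332, 1317 and 1355 at 100 µM. The 3 doses did not overlap, and the libraries at 100 µM were the closest together. In the order of levels over all genes Gpd1 held rank 32 without alginate, rank 22 with 50 µM and rank 9 with 100 µM. With limma it rose 1.82-fold at 100 µM against 0 µM (log2 fold change 0.86 ± 0.06 SE, adjusted p = 2.32e-05). Its paralog Gpd1l, at 9.69 FPKM, held 1.31% of the summed level of the pair at 0 µM and 0.819% at 100 µM. An antisense gene, Gm16537, overlaps Gpd1 and had 11 reads at most, against 30254 or more for Gpd1.

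Pck1, the key enzyme of glyceroneogenesis and a well-known adipocyte target of PPAR gamma, was hardly detected (chromosome 2, 184574656 to 184580749). It had 0.845, 0.370 and 0.627 FPKM at 0 µM, 0.416, 0.381 and 0.575 at 50 µM and 0.804, 1.24 and 1.29 at 100 µM, or 19 to 66 reads in a library. The libraries at 100 µM lay above all those at 50 µM but overlapped those at 0 µM. An exact permutation test over the 3 doses gave p = 0.0571 (1680 arrangements). Leaving out each library in turn, the same test gave p from 0.0214 to 0.104, and 8 of the 9 values were not below 0.05. The lowest came without the second library at 0 µM, which held the lowest Pck1 value. The mitochondrial isoform Pck2 had 26.9 ± 1.09 FPKM (SD, n = 3) at 0 µM, 28.0 ± 1.42 at 50 µM and 26.6 ± 1.61 at 100 µM. Pck1 thus held 2.23% of the summed level of the 2 isoforms at 0 µM and 4.04% at 100 µM, and nearly all of the phosphoenolpyruvate carboxykinase mRNA was Pck2.

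Aqp7 was the most abundant of the 4 listed genes of glycerol channels (chromosome 4, 40385248 to 40405727). Aqp3 and Aqp9 stayed below 0.2 FPKM in every library, and Aqp11, an aquaporin of intracellular membranes, averaged 0.756 FPKM without alginate and 1.04 with 100 µM (log2 0.22, adjusted p = 0.155). Its values were 17.4, 17.3 and 17.6 FPKM at 0 µM, 22.1, 21.1 and 20.5 at 50 µM and 23.3, 28.4 and 26.7 at 100 µM. The doses did not overlap, but the libraries at 100 µM spread over 23.3 to 28.4, with the first of them close to the 50 µM values. Aqp7 rose 1.47-fold at 100 µM against 0 µM (log2 fold change 0.55 ± 0.07 SE, adjusted p = 0.000277).

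Of the isoforms of the first acylation Gpam was the most abundant, followed by Gpat3 and Gpat4. Gpam, the mitochondrial glycerol-3-phosphate acyltransferase (chromosome 19, 56678023 to 56715762), had 81.4, 78.5 and 79.9 FPKM at 0 µM, 85.3, 80.7 and 75.0 at 50 µM and 101, 99.4 and 100.1 at 100 µM. The values at 0 and 50 µM were intermixed, and those at 100 µM stood clear of both. Gpat4, an isoform of the endoplasmic reticulum (chromosome 8, 21935605 to 21976726), had 33.7, 31.8 and 30.3 FPKM at 0 µM, 33.7, 35.1 and 32.3 at 50 µM and 42.3, 42.0 and 41.6 at 100 µM, with the same layout. These 2 genes had the smallest increases of the 9, 1.25-fold for Gpam (log2 0.32 ± 0.05 SE, adjusted p = 0.000913, or 0.20 and 0.0182 after quantile normalization) and 1.31-fold for Gpat4 (log2 0.38 ± 0.05 SE, adjusted p = 0.000353). Gpat3, the other isoform of the endoplasmic reticulum, listed in the table under its older symbol Agpat9, went from 45.2 ± 1.36 to 65.1 ± 2.50 FPKM and rose 0.52 on the log2 scale (adjusted p = 3.26e-05). Gpam made up 50.9% of the summed level of the 4 isoforms at 0 µM, 47.7% at 50 µM and 48.3% at 100 µM, and Gpat4 stayed between 20.0% and 20.3%. Gpat2, an isoform known from testis, was below 0.3 FPKM in every library.

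For the next acylation most of the mRNA came from 1 gene. Agpat2, whose loss causes generalized lipodystrophy, had 422, 386 and 389 FPKM at 0 µM, 499, 472 and 496 at 50 µM and 768, 762 and 746 at 100 µM (chromosome 2, 25353499 to 25364757). The 3 doses were fully separate. It had the largest increase of the 9 at 100 µM, 1.90-fold (log2 0.93 ± 0.05 SE, adjusted p = 1.47e-05), except after quantile normalization, where Gpd1 (0.89) exceeded it (0.79). Agpat2 moved from rank 95 to rank 36 in the order of levels. Agpat3, an acyltransferase of broader substrate use (chromosome 10, 81486355 to 81573258), had 30.6, 29.3 and 29.4 FPKM at 0 µM, 33.9, 34.0 and 32.8 at 50 µM and 41.6, 43.1 and 41.6 at 100 µM. Its doses were separate as well, and it rose 1.40-fold (log2 0.49 ± 0.04 SE, adjusted p = 2.92e-05). Agpat2 supplied 85.6% ± 0.612 (SD, n = 3) of the summed level of Agpat1 to Agpat5 at 0 µM, 87.0% ± 0.484 at 50 µM and 90.1% ± 0.160 at 100 µM. At its end Agpat2 overlaps Egfl7 on the opposite strand, which had 24.2 FPKM on average and at most 1571 reads, against 12300 or more for Agpat2.

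Lpin1 encodes lipin 1, the phosphatidate phosphatase that is mutated in the fatty liver dystrophy mouse (chromosome 12, 14392201 to 14446077). Its values were 63.3, 54.5 and 60.1 FPKM at 0 µM, 71.0, 69.8 and 61.7 at 50 µM and 105, 108 and 111 at 100 µM. The third library at 50 µM fell among those at 0 µM, and the libraries at 100 µM lay far above the rest. Lpin1 rose 1.81-fold at 100 µM (log2 0.85 ± 0.07 SE, adjusted p = 3.36e-05). No other lipin was called higher: Lpin3 fell by 0.32 on the log2 scale (adjusted p = 0.00121), from 8.75 ± 0.307 to 6.83 ± 0.376 FPKM, and Lpin2 stood at 2.10 ± 0.118 and 2.02 ± 0.123 FPKM (log2 -0.04, adjusted p = 0.771). Lpin1 accounted for 84.5% ± 0.925 (SD, n = 3) of the summed lipin level without alginate, 85.3% ± 0.958 with 50 µM and 92.4% ± 0.0579 with 100 µM.

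The final acylation uses a pair of enzymes that are unrelated in sequence. Dgat1, an integral enzyme of the endoplasmic reticulum (chromosome 15, 79444169 to 79454032), had 88.3, 78.9 and 79.8 FPKM at 0 µM, 95.3, 96.9 and 94.8 at 50 µM and 137, 131 and 131 at 100 µM. Dgat2, which also works at the surface of lipid droplets (chromosome 7, 105847849 to 105876501), had 54.2, 50.8 and 49.8 FPKM at 0 µM, 57.9, 58.2 and 58.5 at 50 µM and 88.5, 86.8 and 85.2 at 100 µM. For both genes the doses did not overlap, and the step from 50 to 100 µM was the larger. Dgat1 rose 1.61-fold at 100 µM (log2 0.69 ± 0.05 SE, adjusted p = 2.07e-05) and Dgat2 1.67-fold (log2 0.74 ± 0.04 SE, adjusted p = 1.47e-05). Dgat1 held 61.5% of the summed level of the pair at 0 µM, 62.2% at 50 µM and 60.5% at 100 µM.

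**Figure D2:**
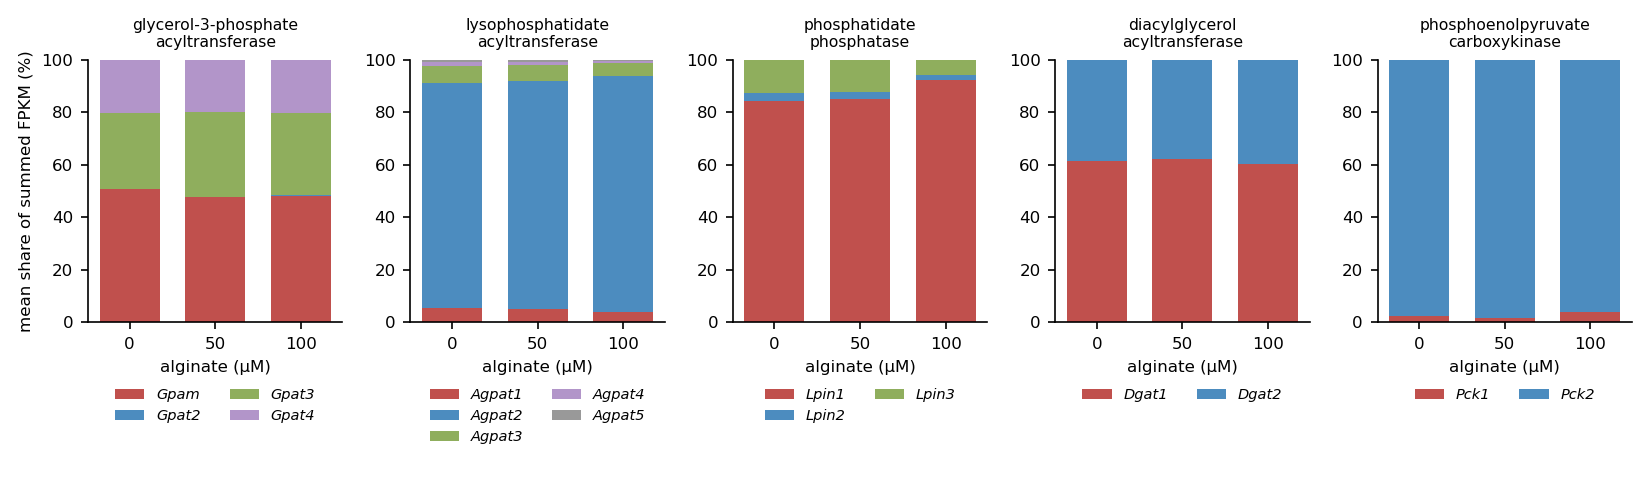
Mean share (%, vertical axis) that each isoform held of the summed FPKM of its enzymatic step at 0, 50 and 100 µM alginate (horizontal axis), with 3 libraries per dose. Agpat2 went from 85.6% to 90.1% and Lpin1 from 84.5% to 92.4%, while the shares of the glycerol-3-phosphate and diacylglycerol acyltransferases moved little.

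At 50 µM against 0 µM the same genes differed little. Agpat2 was the only one of the 9 called higher (1.23-fold, log2 0.29 ± 0.05 SE, adjusted p = 0.0336), where 0.356% of the genes tested were called higher (45 higher and 55 lower). This call rested on the setting: leaving out any 1 of the libraries at 0 or 50 µM, or the second at 100 µM, put its adjusted p between 0.0650 and 0.131, although its log2 difference stayed between 0.27 and 0.34. The other 8 genes had differences of 0.01 (Gpam) to 0.27 (Gpd1), with adjusted p from 0.0796 to 0.977, and 7 of the 9 had an unadjusted p below 0.05, as did 14.4% of the genes tested. The libraries at 50 µM all lay above those at 0 µM for 6 of the 10 genes, namely Gpd1, Aqp7, Agpat2, Agpat3, Dgat1 and Dgat2, and for 12.1% of the genes tested. For Gpam the interval of the difference ran from -0.10 to 0.11 and for Gpat4 from -0.03 to 0.19 (95% confidence, log2).

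**Figure D3:**
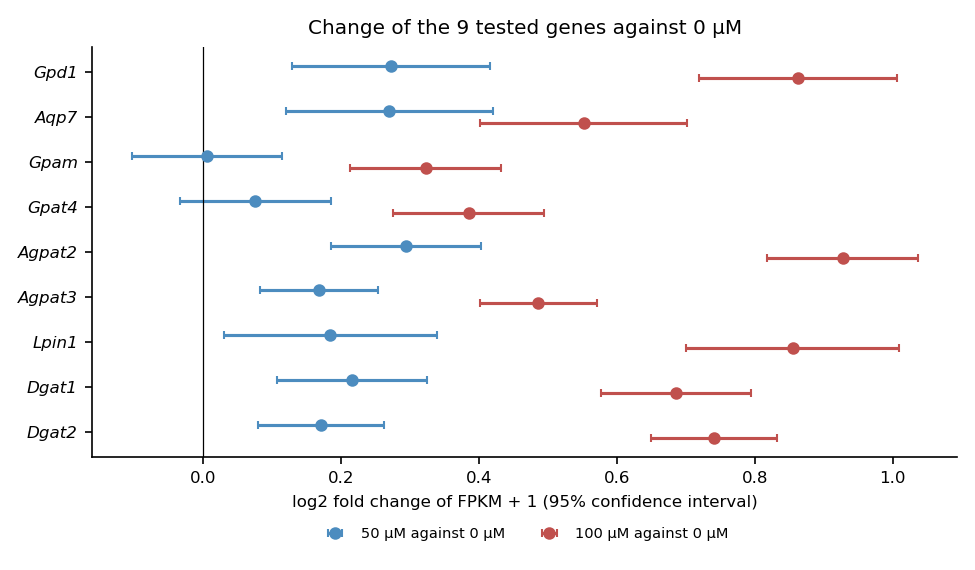
Log2 fold change of FPKM + 1 (horizontal axis) of the 9 tested genes at 50 µM (blue) and 100 µM (red) against 0 µM, with 95% confidence intervals from limma. Gpam and Gpat4 include 0 at 50 µM, and all 9 lie above 0 at 100 µM, from 0.32 to 0.93.

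Between 50 and 100 µM all 9 genes rose, where 13.2% of the genes tested were called higher (1663 higher and 1510 lower, or 1050 and 2040 on a TPM scale). The log2 fold changes ran from 0.28 for Aqp7 (adjusted p = 0.0144, or 0.0530 on the TPM scale) to 0.67 for Lpin1 (adjusted p = 0.000344). Without overlap, the 100 µM libraries lay above those at 50 µM for all 10 genes, Pck1 included, and for 20.9% of the genes tested. The share of the total difference already present at 50 µM, on the FPKM scale, was 2.02% for Gpam, 16.9% for Lpin1, 17.6% for Gpat4 and 18.7% for Dgat2. It was 25.1% for Agpat2, 25.5% for Gpd1, 26.4% for Dgat1, 30.7% for Agpat3 and 43.9% for Aqp7. Leaving out each library, a check of these shares added after the data had been seen, moved 2 of them most. The Gpam share ran from -10.3% without the first library at 50 µM to 15.2% without the third, and was -1.48% without the second and 5.41% without the first at 0 µM, so its size is not determined. The Gpat4 share ran from 10.2% without the third library at 0 µM to 24.5% without the third at 50 µM. It was 10.6% without the second at 50 µM and 24.3% without the first at 0 µM. The Aqp7 share ran from 37.7% without the first library at 100 µM to 50.5% without the second. The Lpin1 share ran from 12.6% without the second library at 0 µM to 22.9% without the third at 50 µM. The level at 50 µM was also set against the midpoint of the 0 and 100 µM levels on the log2 scale. Of the 9 genes 8 lay below that midpoint, by up to 0.24 for Lpin1, and the side on which Aqp7 lay changed with the scaling (-0.01, or 0.02 on the TPM scale). Dgat2 alone was called (-0.20 ± 0.04 SE, adjusted p = 0.0383), where 0.499% of the genes tested were called lower. The Dgat2 call was lost on leaving out any single library (adjusted p from 0.0522 to 0.146), and 8 of the 9 had an unadjusted p below 0.05, as did 18.1% of the genes tested. The comparisons share libraries, so they are not separate evidence of a pattern.

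Ratios of genes within a library do not depend on its scaling. In bulk libraries they can depend on the mix of cells, and the part of that mix in the ratios was not tested. The ratio of Agpat3 to Agpat2 was 0.0747 ± 0.00194 (SD, n = 3) at 0 µM, 0.0687 ± 0.00299 at 50 µM and 0.0555 ± 0.00126 at 100 µM, without overlap between doses. An exact permutation test over the 3 doses gave p = 0.00357, the smallest that 1680 arrangements allow, or 0.0143 adjusted over the 4 ratios tested. The ratio of Dgat1 to Dgat2 was 1.59 ± 0.0379, 1.64 ± 0.0234 and 1.53 ± 0.0175 (exact permutation p = 0.00714, adjusted 0.0143), so it was lowest at 100 µM. This difference was small, 0.06 on the log2 scale between 0 and 100 µM, and the adjusted exact p lay between 0.05 and 0.0929 without the first or second library at 50 µM or without any 1 of those at 100 µM. Gpat4 over Gpam was 0.400 ± 0.0182, 0.420 ± 0.0222 and 0.419 ± 0.00295 (exact permutation p = 0.311). Gpd1 over Pck1 was 1316 ± 473, 2018 ± 512 and 1256 ± 347 (exact permutation p = 0.204), a ratio that the few Pck1 reads make imprecise. Between 0 and 100 µM alone no exact two-sided test of 3 against 3 libraries can go below 0.1.

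**Figure D4:**
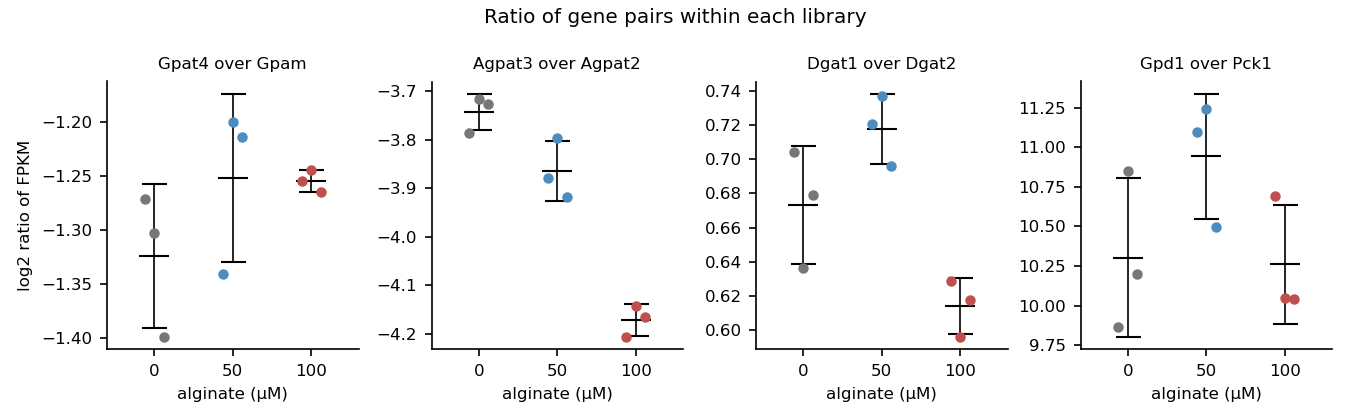
Log2 ratio of FPKM of gene pairs (vertical axis, a different scale in each panel) in each library at 0, 50 and 100 µM alginate. Points are libraries, and the bars show the mean and the SD of 3. Agpat3 over Agpat2 falls from 0 to 100 µM without overlap, and the other panels overlap between doses or, for Dgat1 over Dgat2, differ by 0.06 between 0 and 100 µM.

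The 7 adipocyte markers (Adipoq, Plin1, Cidec, Lipe, Fabp4, Pnpla2 and Cd36) moved with these genes: 7 of 7 rose at 100 µM (18.3% over all genes tested), with a median log2 fold change of 0.68. Their summed level ranged over 5622 to 5743 FPKM without alginate, 6106 to 6552 with 50 µM and 8190 to 8834 with 100 µM. Each gene was therefore also set against the mean log2 level of these markers in the same library, as a description with no test that was added after the data had been seen. Relative to the markers, Agpat2 was higher at 100 than at 0 µM by 0.30 on the log2 scale, Gpd1 by 0.24, Lpin1 by 0.23 and Dgat2 by 0.11, each without overlap of the libraries. Gpam was lower by 0.30 (from -2.75 to -3.05), Gpat4 by 0.24 (from -4.05 to -4.29) and Agpat3 by 0.14 (from -4.14 to -4.28), also without overlap. On this scale 0.776% of the genes tested were higher without overlap and 88.6% lower, with a median of -0.62, so a gene that is lower on it is like most of the table. For Dgat1, Aqp7 and Pck1 the libraries at 0 and 100 µM overlapped on this scale. The markers themselves rose by different amounts at 100 µM against 0 µM, from 0.44 (Cd36) to 0.76 (Pnpla2) in log2 fold change. The log2 fold changes of Dgat2 (0.74) and Agpat3 (0.49) lie within that range, so neither stands outside the spread of the markers.

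Markers of other cells moved the opposite way. For scale, 1965 of the 12635 genes tested were called lower at 100 µM and 2314 higher. Of the tested stromal progenitor markers 5 of 6 fell at 100 µM, with a summed level of 740 to 824 FPKM without alginate, 686 to 789 with 50 µM and 424 to 496 with 100 µM. Macrophage markers fell in 7 of 8 (216 to 244, 234 to 238 and 172 to 178 FPKM, in the same order). Endothelial markers fell in 6 of 7 (129 to 144, 124 to 135 and 109 to 113 FPKM). Of the smooth muscle and pericyte markers 2 of 6 fell and 1 rose (281 to 322, 280 to 332 and 187 to 207 FPKM). No matched marker was at 0 in any library. The ratio of the scaling total to the reads, which is the factor the deposited values carry, was 1.02 ± 0.00737 (SD, n = 3) without alginate, 1.02 ± 0.00202 with 50 µM and 0.973 ± 0.00324 with 100 µM. The part of these cell markers in the rise of the 9 genes was not tested.

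The other genes of triglyceride assembly did not move as 1 block. Of 19 listed, 15 were tested, and at 100 µM 4 rose, 4 fell and 7 were not called, with a median log2 fold change of -0.04. Over all 12635 genes tested, 2314 (18.3%) were called higher and 1965 lower. The largest increase in this list was that of Fitm2, an endoplasmic reticulum protein needed for lipid droplet formation (80.4 ± 1.02 to 124 ± 2.29 FPKM, log2 0.62, adjusted p = 2.25e-05). Bscl2 (seipin), whose loss like that of Agpat2 causes lipodystrophy, rose 0.48 and Agpat1 0.32 on the log2 scale, and the fourth was Gpat3. The genes that fell were Agpat4 (-0.46), Plpp3 (-0.42), Plpp1 (-0.36) and Lpin3 (-0.32). Plpp1 and Plpp3 encode lipid phosphate phosphatases of the plasma membrane, which act on signalling lipids as well, and Plpp3 went from 196 ± 5.84 to 146 ± 0.239 FPKM. Gpat2, Mogat1, Mogat2 and Fitm1 were below the filter.

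Of 12 other genes of glycerol supply 10 were tested. At 100 µM 7 rose, none fell and 3 were not called (median log2 fold change 0.27), where 18.3% of the genes tested were called higher. Pcx, the pyruvate carboxylase that feeds glyceroneogenesis and citrate export, rose most (213 ± 12.7 to 384 ± 9.21 FPKM, log2 0.85, adjusted p = 2.14e-05). Gpd2, the mitochondrial glycerol-3-phosphate dehydrogenase, rose 0.59, Pgp, a phosphatase that can release glycerol from glycerol-3-phosphate, 0.55 and Gk, the glycerol kinase, 0.53 on the log2 scale. Gk went from 28.0 ± 2.48 to 40.6 ± 0.683 FPKM, with 28.1 at 50 µM. Pdk4 (0.32) and the glycolytic isomerase Tpi1 (0.21) rose less.

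The branch that turns the same intermediates into phospholipids was represented by 14 tested genes. At 100 µM 8 of these rose, none fell and 6 were not called (median log2 fold change 0.23), beside 18.3% called higher over all genes tested. Chpt1, a choline phosphotransferase that competes with Dgat1 and Dgat2 for diacylglycerol, rose most (40.4 ± 2.70 to 68.9 ± 1.75 FPKM, log2 0.76, adjusted p = 2.99e-05). Pcyt2 of phosphatidylethanolamine synthesis rose 0.50, the choline kinase Chkb 0.48, the cardiolipin synthase Crls1 0.39, Ptdss2 0.34 and the ethanolamine kinase Etnk1 0.30. Beside these medians of -0.04, 0.27 and 0.23, that of the 9 genes of the assembly and supply pathway was 0.69, near the 0.68 of the adipocyte markers. At 50 µM 1 of the 15 assembly genes rose (Gpat3, 0.26) and 1 fell (Plpp3, -0.22), where 45 of the 12635 genes tested rose and 55 fell. None of the supply or phospholipid genes was called by limma at 50 µM. Their unadjusted p was below 0.05 in 2 of 10 and 3 of 14 (14.4% over all genes tested, as above). Whether the lists differ from each other was not tested.

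**Figure D5:**
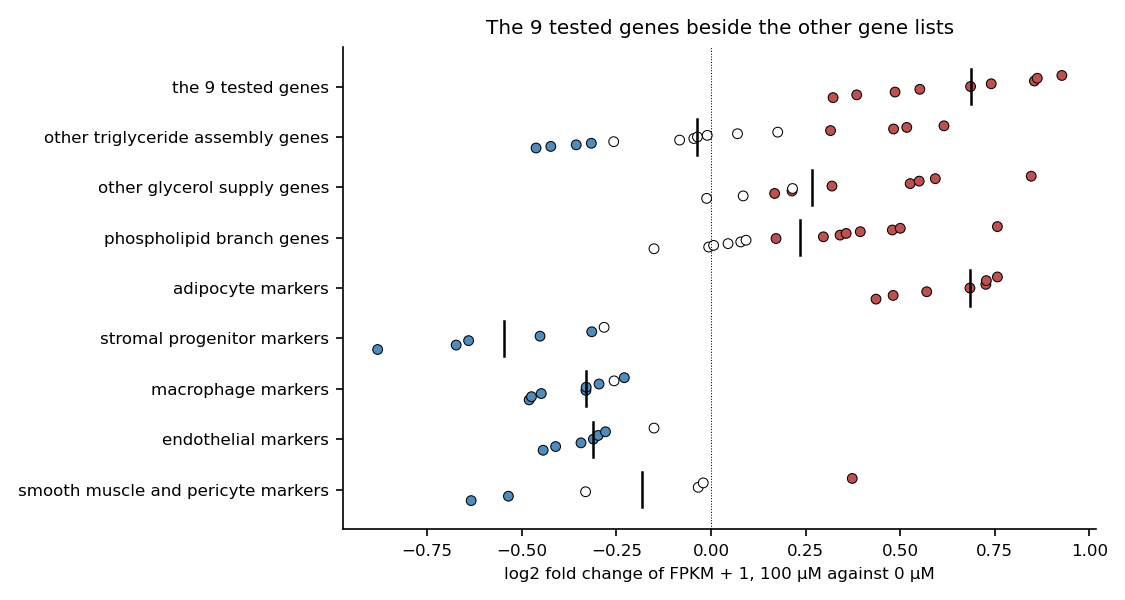
Log2 fold change of FPKM + 1 at 100 µM against 0 µM (horizontal axis) for every tested gene of each list (rows). Red points were called higher, blue called lower and white not called, and the black line is the median of the row. The 9 tested genes all lie right of 0, with a median of 0.69, while the other assembly genes lie on both sides.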

How the data were processed

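RNA was sequenced as paired-end libraries in 9 samples, 3 at each of 3 alginate doses, with doses taken from the treatment labels. The authors deposited 1 table of FPKM values for 41761 genes, per the file headers. The aligner and counting tool, and whether strand was used, are not given in sources used here. GRCm38 and mm10 appear as builds in the submitters' processing notes. The table's identifiers, however, belong to the strain assembly of C57BL/6NJ, whose coordinates are given unconverted. FPKM times gene length was a whole multiple of 1 unit per library for 100% of values (tolerance 0.01 read), which gave back the reads, and the deposited scaling carried a factor per library. FPKM are not counts, so log2(FPKM + 1) was fitted with limma 3.58.1 in R 4.3.3: 1 mean per dose, all 9 libraries, variances moderated with a trend on expression, two-sided. Fold changes are on that scale and understate changes of low genes. The procedure was run on simulated data whose planted changes were larger than those of the 9 tested genes. That run therefore does not bear on changes of their size. Replicate libraries of a dose were further apart than sampling noise allows (chi-square divided by genes, 3.07 to 6.77), so none was counted as a duplicate.

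Ratios were tested over the 3 doses with the exact permutation test of the F statistic. The genes and lists were chosen with earlier results of these data known. The text names all 10 genes, of each other pathway list up to 6 genes with the smallest F-test p over the doses and all genes that moved in the less frequent direction; partners at the same step (Pck2, Gpd1l, Gpat2, Lpin2, Aqp3, Aqp9, Aqp11), untested genes, the adipocyte markers and overlapping genes are named outside that rule. Of the listed genes, 2 phospholipid genes and 1 macrophage marker were not matched by symbol and are not analysed here. Alternatives were another pseudocount (0.1), no filter, a TPM scale, quantile normalization, removal of the factor per library, voom on the rebuilt reads, only the groups compared, a replicate block and leaving out each library.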

Additional observations from a re-analysis of the deposited data

How the results depend on the processing

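At 100 µM against 0 µM all 9 tested genes stayed called higher under each of the 17 alternatives, including every single library left out, while genes called in all ranged from 1620 to 2390 higher and 1639 to 2658 lower (leaving out a library, 1867 to 2358 and 1496 to 1964). The median over all genes shifted by less than 0.1 on the log2 scale under each. At 50 µM against 0 µM calls were few. The members called higher, 1 in the reported fit, were 0 with no filter, 4 with voom, 0 with only the groups compared and 0 to 2 when a library was left out. Over all genes the calls there, 45 higher and 55 lower, became 6 and 6 with no filter, 169 and 179 with voom, 0 and 0 with only the groups compared, and 0 to 53 and 0 to 59 when a library was left out. At 100 µM against 50 µM the genes called higher, 1663, became 1050 on the TPM scale and 1102 without the factor per library. Below the midpoint, 1 of the genes described was called, 0 with no filter, 0 with quantile normalization, 5 with voom and 0 without any 1 library, and over all genes the 63 became 1 with no filter, 246 with voom and 0 to 55 when a library was left out.

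The replicate block used the last digit of the library names. Same-numbered libraries did not deviate together (correlations of deviations from -0.0941 to 0.0412 in 9 pairs). Whether they share a culture or mouse is not stated, and these correlations cannot decide it. With this block the 50 µM comparison called 0 of the genes described and 0 genes higher and 0 lower in all, and the midpoint comparison 0 of the genes described and 4 genes lower in all. The ratios on 100 against 0 µM only kept their differences (-0.43 for Agpat3 over Agpat2, -0.0591 for Dgat1 over Dgat2) but the exact test cannot pass there (adjusted p = 0.133). Dgat1 over Dgat2 ranged from -0.0776 to -0.0436 when a library was left out. Gpd1 over Pck1, -0.04 in the reported test, turned to 0.47 with a pseudocount of 1 (adjusted exact p = 0.0381); the pseudocount exceeds most Pck1 values. The causes of the other changes were not tested. Depth limits Pck1 alone among the 10 genes, and with no filter limma gave it a log2 difference of 0.39 at 100 µM against 0 µM (adjusted p = 0.113).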
